A study of Homo sapiens with 4 samples.

Results

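Cholesterol synthesis, uptake and efflux were followed through 32 genes in A549 cells transfected with SAMD9. They were taken by symbol from lists of the enzymes that make cholesterol, the SREBP machinery that controls those enzymes, the proteins that move sterols inside cells, the LXR receptors with the exporters and receptor turnover they control, and the enzyme that makes 25-hydroxycholesterol. All 32 were found among the 58812 genes listed, and all 32 passed the filter on low counts. CH25H passed it only through the SAMD9 libraries, where it was high. Sterol genes that are not among these 32 are not described beyond the related lists given at the end.

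A549 is an established human lung carcinoma line of epithelial origin. RNA sequencing was done on 4 libraries, made 24 hr after transfection with 1 µg of plasmid. In 2 libraries the plasmid was the empty vector pCMV6-Entry, and in the other 2 it was SAMD9-Myc-DDK, which encodes SAMD9, an interferon-induced antiviral protein, with a Myc-DDK tag. The comparison asks how sterol gene expression differed when SAMD9 was overexpressed. The labels give no untransfected cells, and no label tells whether replicates came from separate cultures. The p-values therefore set each difference between the groups only against the scatter of these libraries, estimated in part across genes. That scatter may be technical.

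Cells hold their cholesterol level steady with a pair of opposed switches. When sterol is scarce in the endoplasmic reticulum, SCAP escorts the SREBP precursors to the Golgi, where they are cut to free a transcription factor that turns on the synthesis enzymes; when sterol is plentiful, INSIG proteins hold SCAP back. Oxysterols such as 25-hydroxycholesterol also bind INSIG, and they are ligands of the LXR receptors, which turn on exporters such as ABCA1. CH25H, the enzyme that makes 25-hydroxycholesterol, is known as an interferon-induced antiviral gene.

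Library totals ranged from 29301854 to 39670083 counts. Levels are given as CPM (library-scaled counts) after TMM scaling, and tests are edgeR quasi-likelihood tests with Benjamini-Hochberg adjustment over the 19814 genes tested, with an adjusted p below 0.05 as the threshold for a call. Counts of SAMD9 were 220123 and 184350 in the SAMD9 libraries, against 444 and 400 with empty vector. The epithelial markers were present, apart from KRT19 with 5 to 10 counts per library, and the sum of all 6 was 6277 to 7081 CPM with empty vector and 7894 to 8102 CPM with SAMD9. The summed level of 5 fibroblast markers was 1.69 to 2.72 CPM against 5.85 to 6.04 CPM, most of it COL1A1, with 1 of the 5 at 0 in every library. Leukocyte markers (3.74 to 4.51 against 4.37 to 5.12 CPM, 1 of 6 at 0 in every library) and endothelial markers (0.384 to 0.508 against 0.456 to 0.664 CPM, none of 4 at 0 in every library) overlapped between the groups. The part of these marker levels in the results below was not tested, and in bulk RNA fewer cells of a type cannot be told apart from less RNA per cell.

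Upstream sequence is shown for 5 members: STARD4 and CH25H, which rose most, HMGCS1, the synthesis enzyme that rose, and the 2 SREBP genes, of which SREBF1 fell and SREBF2 was not called with TMM scaling. Each run holds the 250 bases before the RefSeq start site on the gene's own strand (GRCh38.p14), and capitals mark matches to the motifs searched. The windows lie at chr5:111512536-111512785 (minus strand), chr10:89207318-89207567 (minus strand), chr5:43313413-43313662 (minus strand), chr17:17836987-17837236 (minus strand) and chr22:41832855-41833104 (plus strand).
STARD4: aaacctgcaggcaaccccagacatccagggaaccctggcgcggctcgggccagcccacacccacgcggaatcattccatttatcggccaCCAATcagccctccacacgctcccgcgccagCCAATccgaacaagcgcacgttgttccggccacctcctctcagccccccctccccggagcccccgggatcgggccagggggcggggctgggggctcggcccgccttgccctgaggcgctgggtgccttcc
CH25H: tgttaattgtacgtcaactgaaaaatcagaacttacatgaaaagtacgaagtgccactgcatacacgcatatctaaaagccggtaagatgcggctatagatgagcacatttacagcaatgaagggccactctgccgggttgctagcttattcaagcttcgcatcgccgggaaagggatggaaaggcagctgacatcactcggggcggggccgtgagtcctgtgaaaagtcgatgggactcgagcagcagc
HMGCS1: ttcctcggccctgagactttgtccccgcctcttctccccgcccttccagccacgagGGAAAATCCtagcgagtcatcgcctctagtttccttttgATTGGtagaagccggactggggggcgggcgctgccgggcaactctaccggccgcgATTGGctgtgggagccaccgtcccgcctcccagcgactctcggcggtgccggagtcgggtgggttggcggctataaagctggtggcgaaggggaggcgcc
SREBF1: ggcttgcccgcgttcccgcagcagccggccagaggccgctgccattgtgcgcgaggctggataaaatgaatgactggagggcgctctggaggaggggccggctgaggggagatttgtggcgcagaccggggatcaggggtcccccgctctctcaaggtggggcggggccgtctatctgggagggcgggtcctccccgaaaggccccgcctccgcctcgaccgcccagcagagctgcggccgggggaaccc
SREBF2: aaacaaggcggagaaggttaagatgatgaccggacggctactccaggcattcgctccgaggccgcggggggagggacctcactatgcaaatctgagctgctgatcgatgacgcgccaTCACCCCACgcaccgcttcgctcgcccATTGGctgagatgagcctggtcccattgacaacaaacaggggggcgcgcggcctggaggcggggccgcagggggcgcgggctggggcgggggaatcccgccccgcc

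A window from 250 bases before to 50 after the start was found for 28 of the 32 members and searched on both strands. The sterol regulatory element core TCACNCCAC, the sequence SREBPs bind, was in 1 of the 28 member windows, that of SREBF2 at position -133 from the start, against 1.12% of 34943 windows of all genes. An interferon-stimulated response element core, TTCNNTTTC, was in 1 member window, that of EBP, against 8.10% of all windows, and it was not in the CH25H window. An NF-kB core, GGANTTTCC, was in the HMGCS1 window alone among members, against 1.65% of all windows. The box CCAAT, which binds NF-Y, a partner of SREBP, was searched after the windows had been seen. It was in 17 of the 28 member windows (60.7%) against 34.6% of all windows, and 12 of the 28 (42.9%) held at least 2 copies against 10.8%. STARD4 and HMGCS1 held 2 copies each, and MVK and NSDHL held 5 each. No CCAAT was in the CH25H, SREBF1, ABCA1 or NR1H2 windows. A match is a run of letters and not a binding site, and the motifs do not overlap each other in the printed sequences.

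Of the 32 members, 7 rose with SAMD9 and 3 fell, with 22 not called. CH25H is among the 7, and its call is favoured by the filter; without it 6 rose. Among all genes tested, 15.3% rose and 12.2% fell, so 7 of 32 and 3 of 32 are to be read against shares of that size. The median log2 fold change was -0.11 over the members and -0.01 over all genes tested. Both SAMD9 libraries lay above both empty vector libraries in 8 members and below them in 15, against 31.1% and 30.9% of all genes tested. The members that rose were STARD4, CH25H, HMGCS1, ABCA1, INSIG1, NPC2 and NR1H2, and those that fell were SREBF1, SQLE and MVK. The scaling mattered for the rest: scaling by library totals, which moved the median of all genes to -0.19, gave 3 rises (HMGCS1, STARD4 and CH25H) and 20 falls, with a member median of -0.30. With that scaling 9.96% of all genes rose and 28.5% fell.

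**Figure D1:**
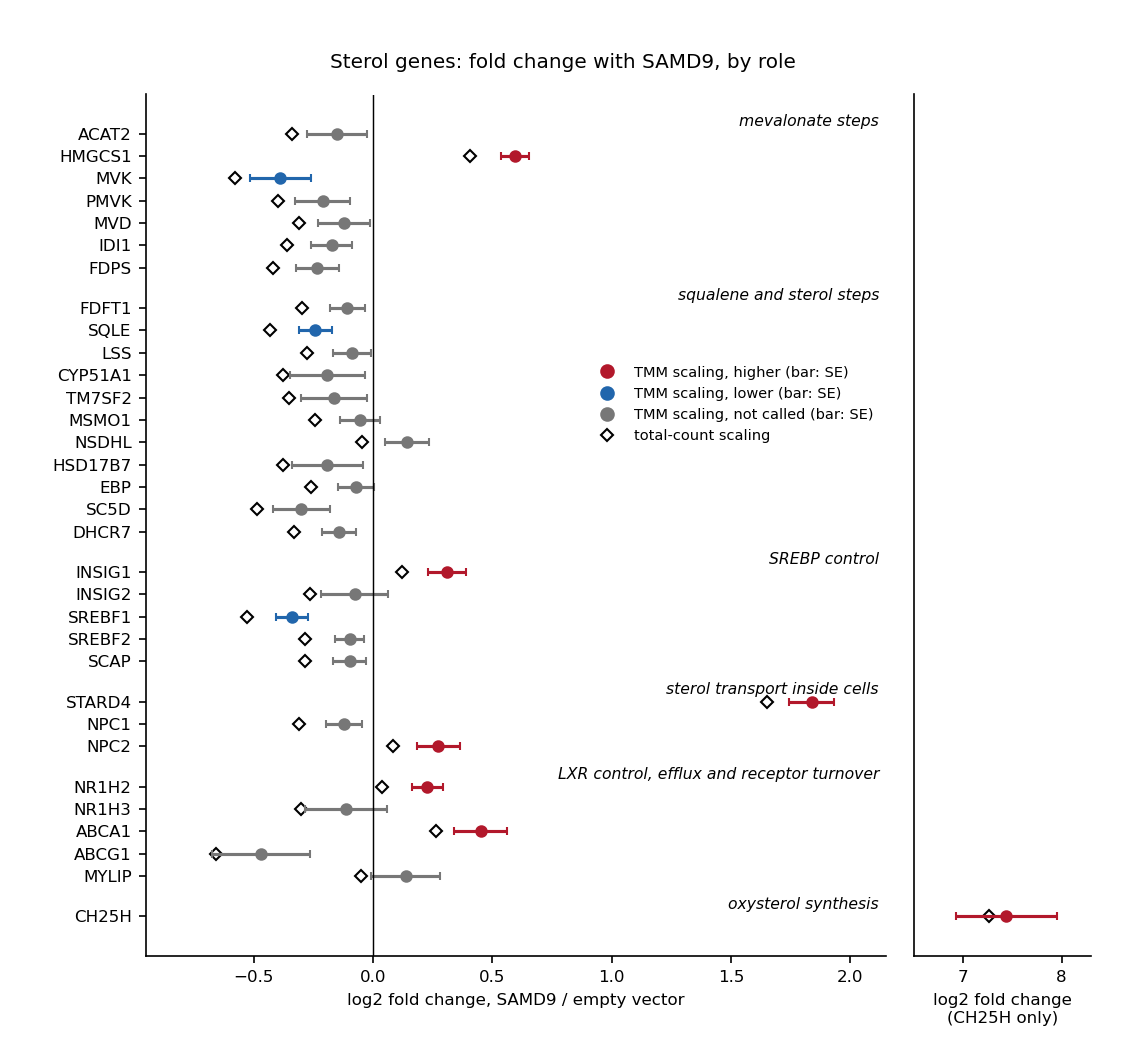
Log2 fold change of each of the 32 members, SAMD9 over empty vector, ordered by role, with circles for TMM scaling (bar: SE; red higher, blue lower, grey not called) and open diamonds for total-count scaling. CH25H has its own axis at the right. STARD4 (1.84) and HMGCS1 (0.59) stand to the right of the other members on the main axis, most synthesis enzymes lie slightly left of 0, and every diamond lies left of its circle.

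The mevalonate steps turn acetyl-CoA into farnesyl diphosphate, and among these 7 genes HMGCS1 rose and MVK fell. HMGCS1 makes HMG-CoA, the precursor of mevalonate (ENSG00000112972, chromosome 5, 43289395 to 43313512, minus strand, GRCh38). Its level was 168 and 168 CPM with empty vector and 253 and 254 CPM with SAMD9. The replicates nearly coincided and the groups were far apart. The log2 fold change was 0.59 (SE 0.06, edgeR adjusted p = 4.6e-08), a 1.51-fold rise that was called under each of the 9 alternatives tried (0.41 to 0.60). HMGCS1 was already the most abundant member per length with empty vector, at 35.7 CPM per kb of the listed gene length, and it reached 53.9 CPM per kb with SAMD9. A non-coding gene on the opposite strand shares 703 of its exonic bases (15.0%) but had only 8 to 33 counts in any library, against 5269 to 9434 for HMGCS1.

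MVK, the kinase that phosphorylates mevalonate, moved the other way. It had 18.1 and 23.3 CPM with empty vector and 15.8 and 15.9 CPM with SAMD9, so the groups did not overlap, but the empty vector libraries differed from each other by more than the lower of them differed from SAMD9. The log2 fold change was -0.39 (SE 0.13, edgeR adjusted p = 0.0256). DESeq2 did not call it, and neither did edgeR without empty vector replicate 2 (-0.19) or without either SAMD9 library. MVK shares 306 exonic bases with MMAB on the opposite strand, and the ratio of MVK to MMAB counts within a library overlapped between the groups, at 0.835 and 1.17 with empty vector and 0.903 and 0.958 with SAMD9.

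The other 5 mevalonate genes were not called. FDPS, which makes farnesyl diphosphate, had a log2 fold change of -0.23 (adjusted p = 0.0587) and PMVK, the second kinase, one of -0.21. IDI1, the isopentenyl diphosphate isomerase, was at -0.17, ACAT2, a cytosolic thiolase at the head of the pathway, at -0.15, and MVD, the decarboxylase, at -0.12. Leaving out empty vector replicate 2 turned ACAT2 to 0.0060 and MVD to 0.04, and leaving out empty vector replicate 1 brought FDPS and PMVK past the threshold as falls. ACAT2 shares 1850 exonic bases (43.0%) with SOD2 on the opposite strand, whose counts rose with a log2 fold change of 2.42, so the reads of these genes may not be separable. FDPS shares 693 bases (18.6%) with RUSC1-AS1, at 0.81.

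The later steps turn farnesyl diphosphate into squalene, close the sterol rings and trim them into cholesterol. Of these 11 genes none rose and SQLE fell. SQLE, the squalene epoxidase that adds the first oxygen and can limit flux (ENSG00000104549, chromosome 8, 124998497 to 125022283, plus strand), had 107 and 108 CPM with empty vector and 94.9 and 86.8 CPM with SAMD9. Both SAMD9 libraries lay below, and SAMD9 replicate 2 was the lowest. In the test, the log2 fold change was -0.24 (SE 0.07, edgeR adjusted p = 0.0115), and without SAMD9 replicate 2 it was -0.17 and no longer called.

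The other 10 lay between -0.30 and 0.14 with no call. SC5D, a late desaturase, was at -0.30 (adjusted p = 0.0643), HSD17B7, a ketosteroid reductase, at -0.19, and CYP51A1, the lanosterol demethylase, also at -0.19. The SAMD9 libraries disagreed on CYP51A1: it had counts of 386 and 508 (empty vector) and of 528 and 281 (SAMD9), and the fold change was 0.05 without SAMD9 replicate 2 and -0.48, past the threshold, without SAMD9 replicate 1. A same-strand gene model, LRRD1, covers 3211 of its exonic bases (78.8%) with 1 to 6 counts. TM7SF2, a sterol reductase, was at -0.16, DHCR7, which makes cholesterol from its last precursor, at -0.14, FDFT1, the squalene synthase, at -0.11, and LSS, which closes the rings, at -0.09. EBP, a sterol isomerase, was at -0.07 and MSMO1, a methyl sterol oxidase, at -0.05. NSDHL, a sterol dehydrogenase, was the one positive value among the 11, at 0.14, with 30.7 and 32.6 CPM against 34.4 and 35.6 CPM, and total-count scaling turned it to -0.05. HSD17B7 shares 19.1% of its 31-base words with a pseudogene, HSD17B7P2, so its reads may be split.

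HMGCS1 lay outside the range of the rest of the synthesis pathway. The 17 other synthesis genes lay between -0.39 and 0.14, with 16 of them negative. Their median was -0.16, against -0.01 over all genes tested. The share of all genes with a negative value was not counted. As shares of raw library totals, the 18 genes together stood at 0.0946% and 0.0989% (empty vector) and 0.0879% and 0.0848% (SAMD9). These shares carry no TMM scaling, and scaling by totals moved the median log2 fold change of all genes tested to -0.19. Whether the lower shares go beyond that shift was not tested. The ratio of HMGCS1 counts to those of the other 17, which needs no scaling between libraries, was 0.235 and 0.220 with empty vector and 0.371 and 0.387 with SAMD9, 1.67 times as high. This and the other ratios were chosen after the values had been seen, and with 2 libraries against 2 the smallest two-sided exact permutation p is 0.333, which all ratios with separated groups reached. With total-count scaling 15 of the 17 fell and all 17 were negative, while HMGCS1 still rose (0.41). Of all genes tested, 28.5% fell with that scaling.

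The genes that control SREBP did not move as a block: of 5, INSIG1 rose and SREBF1 fell. SREBF1 encodes SREBP-1, which mainly drives fatty acid genes (ENSG00000072310, chromosome 17, 17810399 to 17837002, minus strand). It had 251 and 274 CPM with empty vector and 218 and 197 CPM with SAMD9, a separation wider than the gap within either group. The change on the log2 scale was -0.34 (SE 0.07, edgeR adjusted p = 0.000376), a 1.27-fold fall that was called under each of the 9 alternatives (-0.53 to -0.26). RAI1, which shares 556 exonic bases (6.92%) with SREBF1 on the opposite strand, was at -0.49, and TOM1L2, the next gene along at 6.51 kb, was at -0.57 (adjusted p = 6.3e-05). No test separated SREBF1 reads from RAI1 reads.

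SREBF2 encodes SREBP-2, the main driver of the cholesterol enzymes (ENSG00000198911, chromosome 22, 41833079 to 41907308, plus strand). Its level was 186 and 183 CPM with empty vector and 177 and 168 CPM with SAMD9. The groups did not overlap, but the difference was not called with TMM scaling (log2 fold change -0.10, SE 0.06, edgeR adjusted p = 0.27). It was called as a fall with total-count scaling (-0.29, adjusted p = 0.000795). The ratio of SREBF1 to SREBF2 counts was 1.35 in the lower of the empty vector libraries and 1.24 in the higher of the SAMD9 libraries, so these groups did not overlap either. SCAP, the escort protein, had 108 and 109 CPM against 106 and 96.6 CPM and was not called (-0.10, adjusted p = 0.34).

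INSIG1, the sterol-sensitive anchor that is itself a classic SREBP target (ENSG00000186480, chromosome 7, 155297776 to 155310235, plus strand), had 43.9 and 43.0 CPM with empty vector and 54.5 and 53.2 CPM with SAMD9. The replicates lay close together and the groups did not overlap. On the log2 scale the change was 0.31 (SE 0.08, edgeR adjusted p = 0.0056), but it was 0.12 with total-count scaling and 0.30 without SAMD9 replicate 1, and neither was called. INSIG2, its paralog, was at -0.08 and overlapped between the groups, and it turned to 0.07 without empty vector replicate 1. INSIG1 counts were on average 3.68 times those of INSIG2 with empty vector and 4.78 times with SAMD9, with no overlap between the groups. The ratio of INSIG1 to SREBF1 counts was 0.175 and 0.157 with empty vector and 0.249 and 0.271 with SAMD9, 1.57 times as high.

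**Figure D2:**
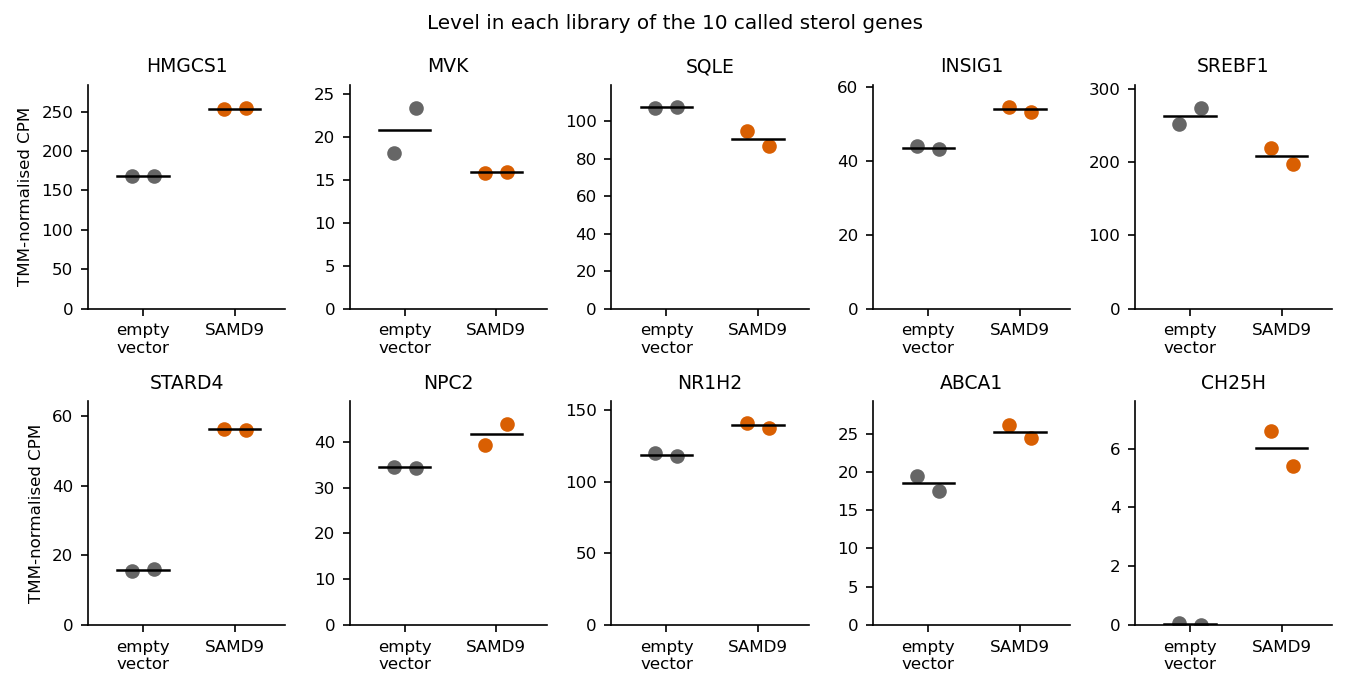
TMM-normalised CPM in each library for the 10 called members, with empty vector in grey, SAMD9 in orange and a line at the mean of each group (n = 2); each panel's axis starts at 0. The groups do not overlap in any panel; STARD4 and HMGCS1 show replicates that nearly coincide, while MVK shows empty vector libraries that lie apart.

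Inside the cell, sterol is carried by soluble proteins such as STARD4 and leaves the lysosome through NPC2 and NPC1. STARD4, which moves cholesterol between membranes, rose more than any other member apart from CH25H (ENSG00000164211, chromosome 5, 111496033 to 111512590, minus strand). It had 15.5 and 16.0 CPM with empty vector and 56.5 and 56.0 CPM with SAMD9. The replicates of each group nearly coincided. The log2 fold change was 1.84 (SE 0.09, edgeR adjusted p = 2.9e-13), a 3.57-fold rise, and it held under each of the 9 alternatives (1.65 to 1.87). Per length the level went from 2.77 to 9.89 CPM per kb, that is from below INSIG1 (11.9 CPM per kb) to nearer the INSIG1 level with SAMD9 (14.8 CPM per kb). STARD4 counts were 0.0175 and 0.0172 times the sum of the 18 synthesis genes with empty vector and 0.0604 and 0.0614 times with SAMD9, a ratio 3.51 times as high.

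STARD4-AS1, an antisense gene that shares 124 exonic bases with STARD4 (2.18% of those of STARD4), also rose, from 29 and 23 counts to 102 and 61 (edgeR adjusted p = 0.0023). Its counts were far below those of STARD4, which had 484 and 535 with empty vector and 2107 and 1602 with SAMD9.

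NPC2, the soluble lysosomal protein that hands cholesterol to NPC1, had 34.6 and 34.4 CPM with empty vector and 39.4 and 44.0 CPM with SAMD9. The log2 fold change was 0.27 (SE 0.09, edgeR adjusted p = 0.0272), but it passed neither with DESeq2 nor with total-count scaling (0.08) nor without SAMD9 replicate 2, the higher of the SAMD9 libraries (0.20). NPC1, the membrane partner, had 69.1 and 70.4 CPM against 67.1 and 61.2 CPM and was not called (-0.12, adjusted p = 0.27). The ratio of NPC2 to NPC1 counts was 0.500 and 0.488 with empty vector and 0.587 and 0.719 with SAMD9.

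On the export side, the LXR receptors NR1H3 (LXR alpha) and NR1H2 (LXR beta) sense oxysterols, ABCA1 and ABCG1 pump cholesterol out, and MYLIP, an E3 ligase induced by LXR, degrades lipoprotein receptors. NR1H2 and ABCA1 rose, and none of the 5 fell. ABCA1 (ENSG00000165029, chromosome 9, 104781002 to 104928237, minus strand) had 19.5 and 17.5 CPM with empty vector and 26.2 and 24.4 CPM with SAMD9. The groups were separate (edgeR log2 fold change 0.45, SE 0.11, adjusted p = 0.0034). It was 0.26 and not called with total-count scaling (adjusted p = 0.0679), and called under the other 8 alternatives (0.38 to 0.53).

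ABCG1, the partner exporter that loads mature HDL, had 5.63 and 5.95 CPM with empty vector and 3.65 and 4.75 CPM with SAMD9. Both SAMD9 libraries were lower, but the difference was not called (log2 fold change -0.47, SE 0.21, edgeR adjusted p = 0.0976). With total-count scaling it was called, at -0.66. The ratio of ABCA1 to ABCG1 counts was 3.47 and 2.94 with empty vector and 7.18 and 5.13 with SAMD9, 1.92 times as high.

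NR1H2 had 120 and 118 CPM with empty vector and 141 and 137 CPM with SAMD9 (edgeR log2 fold change 0.23, SE 0.06, adjusted p = 0.0098). The call was lost with total-count scaling (0.04), without SAMD9 replicate 1 and without SAMD9 replicate 2. NR1H3 was much lower per length, at 1.62 against 31.6 CPM per kb with empty vector, and had 7.13 and 7.53 CPM against 7.29 and 6.22 CPM, so its groups overlapped (-0.11, adjusted p = 0.69). MYLIP, at 15.5 and 12.9 CPM against 17.7 and 13.4 CPM, overlapped as well (0.14, adjusted p = 0.54), and it turned to -0.05 with total-count scaling and to -0.08 without SAMD9 replicate 1.

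**Figure D3:**
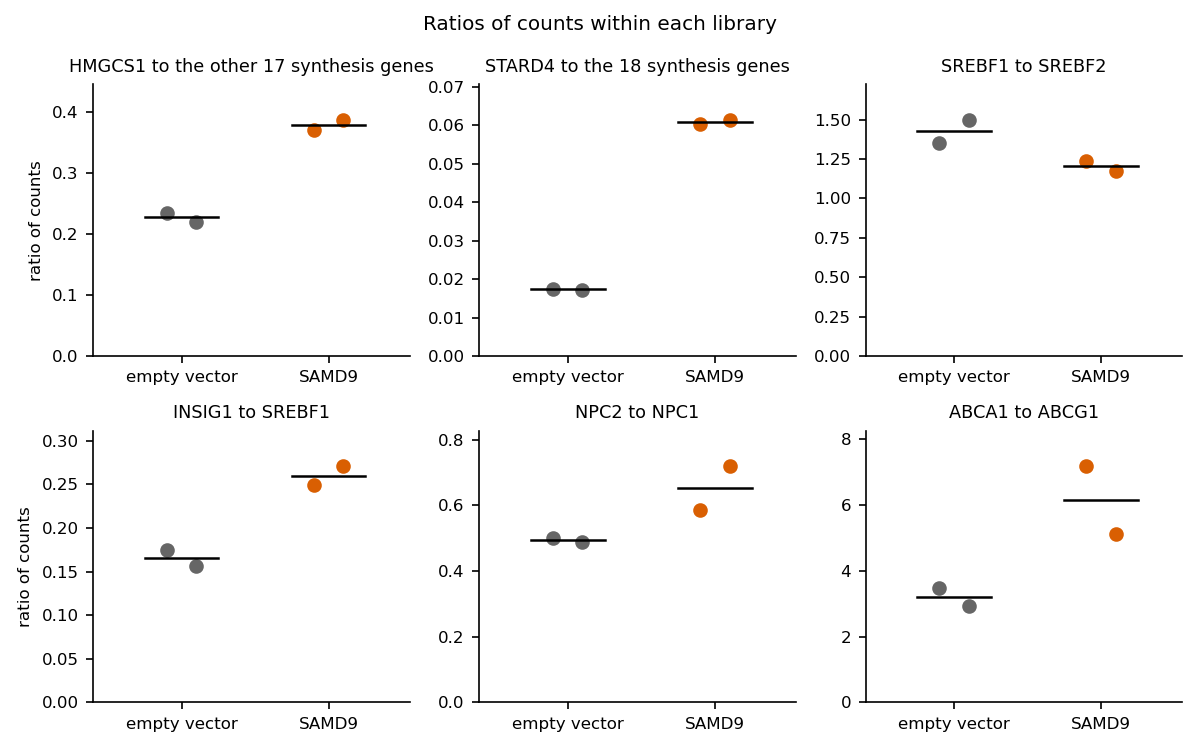
Ratio of counts within each library for 6 pairs or sets of members, empty vector in grey and SAMD9 in orange, with a line at each group's mean (n = 2) and each axis starting at 0. The groups are separate in all 6 panels: SREBF1 to SREBF2 is lower with SAMD9 and the other 5 are higher, most of all STARD4 to the 18 synthesis genes.

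CH25H went from near 0 to a clear level. CH25H (ENSG00000138135, chromosome 10, 89205629 to 89207314, minus strand) was counted 2 times in empty vector replicate 1 and not at all in replicate 2, against 246 and 155 counts with SAMD9, or 0.0639 and 0 CPM against 6.60 and 5.41 CPM. A count of 0 in empty vector replicate 2 allows up to 0.0896 CPM. The ratio of summed counts, scaled for library size, was 197, with a 95% interval of 54.2 to 1632 that covers counting error only. The edgeR log2 fold change was 7.44 (SE 0.51), a value that depends on the prior count because the empty vector counts are so few. It ranged from 6.48 without empty vector replicate 2 to 10.64 without empty vector replicate 1. Because CH25H passed the filter through the group where it was high, its call is a description, and the counts are the better guide. Even at its SAMD9 level CH25H was modest per length: 3.56 CPM per kb, above ABCA1 (2.23 CPM per kb) and below STARD4 (9.89 CPM per kb). None of its 31-base words is shared with another transcript, and no other gene overlaps its exons.

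The genomic surroundings of CH25H were described after its value had been seen. Within 250 kb of CH25H 12 other genes were tested, and 10 of them rose, against 15.3% of all genes tested. Of these 10, AL157394.1, ENSG00000232110, IFIT6P and IFIT1B had 9 counts or fewer in each empty vector library. They passed the filter on low counts only through the SAMD9 libraries, so their calls are favoured by the filter. The nearest was LIPA, the lysosomal acid lipase that frees cholesterol from its esters, at 6.26 kb, with 39.7 and 39.1 CPM against 112 and 109 CPM (log2 fold change 1.48). The interferon-induced gene IFIT2, at 94.6 kb, was at 8.21 and FAS, at 190 kb on the other side, was at 1.89. STAMBPL1 (0.22) and ACTA2 (0.24), farther along the same side as FAS, were not called.

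**Figure D4:**
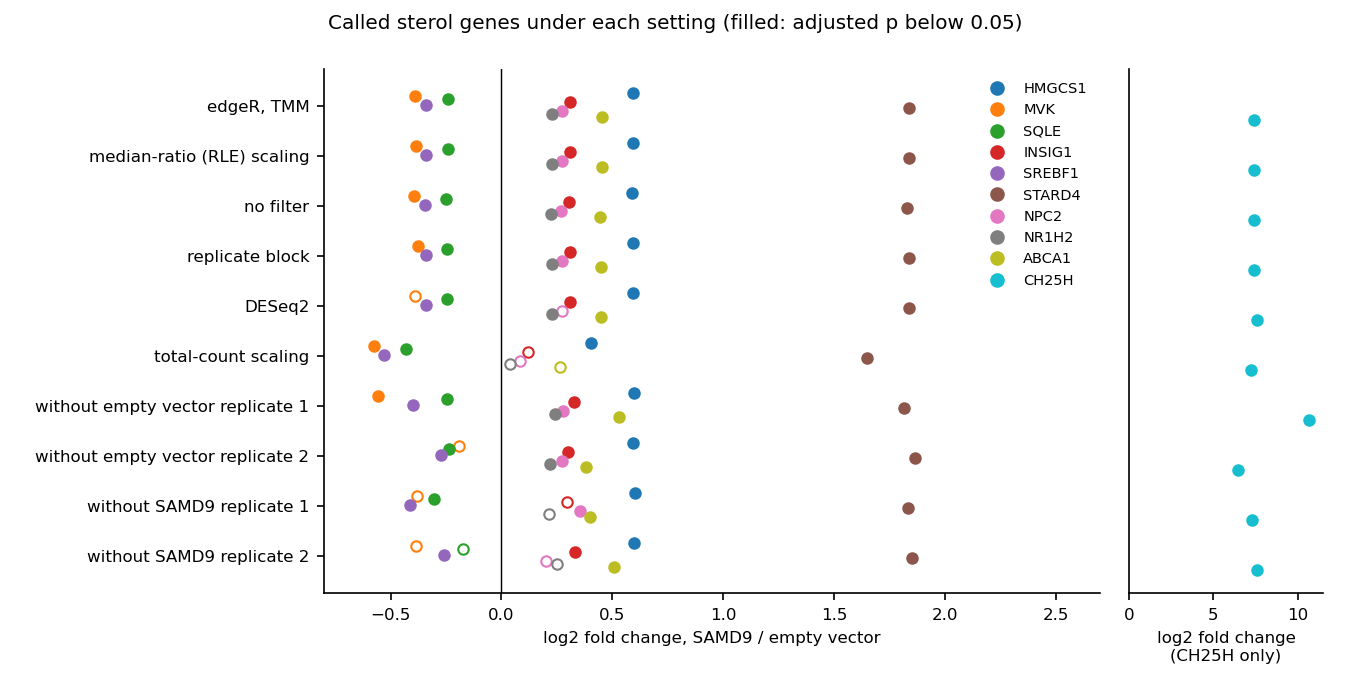
Log2 fold change of the 10 called members under edgeR with TMM and under each of the 9 alternatives, one colour per gene, filled where the adjusted p was below 0.05 and open where it was not; CH25H has its own axis. HMGCS1, STARD4, CH25H and SREBF1 are filled in every row, total-count scaling leaves INSIG1, NPC2, NR1H2 and ABCA1 open, and MVK is open in 4 rows.

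Counts of members called under the other settings are given beside the share of all genes called in the same way. DESeq2 gave 6 rises and 2 falls among the members (12.3% and 8.17% of all genes). Median-ratio scaling gave 7 and 3 (15.4% and 12.2%), as did testing without the filter (8.29% and 6.71%). The counts were 7 and 6 without empty vector replicate 1 (14% and 10.4%) and 7 and 2 without empty vector replicate 2 (14.6% and 10.7%). They were 5 and 3 without SAMD9 replicate 1 (11.3% and 8.38%) and 5 and 1 without SAMD9 replicate 2 (10.6% and 6.81%). STARD4, HMGCS1 and SREBF1 were called in each of these settings, and so was CH25H, with the limit given above.

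Overlap with other genes touches part of these calls. Of the 32 members, 17 shared no exonic base with another listed gene. Among these 17 there were 4 rises (INSIG1, NR1H2, ABCA1 and CH25H) and 1 fall (SQLE). Of all genes tested, with or without shared bases, 15.3% rose and 12.2% fell, and the CH25H call is favoured by the filter. STARD4, HMGCS1, NPC2, SREBF1 and MVK each shared some bases with a gene on the opposite strand. The strand setting of the counting was not named in the sources used here.

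Around these members, 66 further genes in 7 lists of neighbouring pathways were counted, and 62 passed the filter. Of the 62, 14 rose and 11 fell (15.3% and 12.2% of all genes tested), and their median was -0.04 on the log2 scale. Only the group where they were higher reached the filter's minimum in both libraries for SOAT2 and GRAMD1C (rises) and ABCG4 (a fall). Their calls are therefore favoured by the filter. Total-count scaling gave other numbers: 8 rose and 31 fell, against 9.96% and 28.5% of all genes tested with that scaling. The genes named from each list are among those with the lowest p, apart from MBTPS1, MBTPS2 and those named for the filter.

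The machinery that ships, cuts and degrades SREBP and its partners had 2 rises and 1 fall among 13 genes (median -0.07). SEC24D, a cargo adaptor of the COPII vesicles that carry SCAP, rose from 46.9 and 33.8 CPM to 96.9 and 97.6 CPM (log2 fold change 1.27, SE 0.10). SEC24C rose by 0.21, but it was not called with total-count scaling (0.02), nor when empty vector replicate 2 or either SAMD9 library was left out. The genes that encode the site-1 and site-2 proteases, MBTPS1 and MBTPS2, were not called.

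Fatty acid synthesis, the main output of SREBP-1, had 4 falls and 1 rise among 10 genes (median -0.04). Of the 10, 5 were positive and 5 negative. FADS1, a desaturase, had 399 and 406 CPM with empty vector and 319 and 310 CPM with SAMD9, and fell by 0.36 on the log2 scale. FASN, the fatty acid synthase, was at -0.33 and ACACA, the carboxylase before it, at -0.30, and both were called. SREBF1 itself was at -0.34, and whether it bears on FADS1, FASN and ACACA was not tested. These 3 falls were called under each of the 9 alternatives.

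Esterification and hydrolysis of cholesterol had 3 rises and no fall among 4 tested genes of 5. LIPA rose 2.80-fold, from 39.4 ± 0.477 to 110 ± 2.21 CPM (SD, n = 2). SOAT1, which esterifies cholesterol for storage, rose by 0.44, with 45.0 and 50.4 CPM against 67.5 and 61.3 CPM. SOAT2, its paralog, had counts of 18 and 13 with SAMD9 and none in either empty vector library, so it was at least 10.2-fold higher, against a floor of 3 counts over the group and with no allowance for counting error in the SAMD9 libraries. The exact 95% interval for counting error has a lower limit of 7.77-fold. SOAT2 passed the filter on low counts only through the SAMD9 libraries, where it had to be higher, so 2 of the 3 rises (LIPA and SOAT1) do not rest on that filter.

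Other sterol carriers had 3 rises and 2 falls among 14 genes (median -0.01). SCARB2, a lysosomal membrane protein with a cholesterol tunnel, rose from 71.7 and 74.3 CPM to 179 and 182 CPM (log2 fold change 1.31, SE 0.07). STARD5, a relative of STARD4, rose from 34 and 39 counts to 132 and 132 (1.85, SE 0.30); it shares 68.6% of its exonic bases with IL16 on the opposite strand, which had 3 to 14 counts. OSBPL8, an oxysterol-binding relative, fell by 0.31 on the log2 scale, with the call lost without empty vector replicate 1 or SAMD9 replicate 1.

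Further LXR targets and exporters had 2 rises and 2 falls among 8 genes (median -0.18). ABCC1, an exporter with many substrates, rose by 0.38, and LPCAT3, an LXR-induced acyltransferase, rose by 0.35, with the call lost under total-count scaling (0.16) and without SAMD9 replicate 2. Among 3 tested genes of oxysterol metabolism (of 6), SULT2B1, which sulfates oxysterols, fell from 25.7 and 30.5 CPM to 17.9 and 15.1 CPM (-0.77, SE 0.12), HSD3B7, a bile acid enzyme, rose by 0.43 (0.24 and not called with total-count scaling), and CYP7B1, which clears 25-hydroxycholesterol, was not called (-0.38, SE 0.65).

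The branch that leads from farnesyl diphosphate to other isoprenoids had 2 rises and 1 fall among 10 genes (median 0.03). PDSS1, which builds the tail of coenzyme Q, fell from 15.0 and 14.6 CPM to 9.71 and 10.3 CPM (-0.57, SE 0.13). It shares 206 exonic bases (10.5%) with ABI1 on the opposite strand, which was at 0.34. FNTA, the shared subunit of the protein prenyltransferases, rose by 0.29, and GGPS1, the geranylgeranyl diphosphate synthase, by 0.28. GGPS1 shares 138 exonic bases (3.62%) with ARID4B on the opposite strand, which was at 0.83. No test separated the reads of these overlapping genes. The calls of FNTA and GGPS1 were lost under 4 and 6 of the 9 alternatives, among them total-count scaling.

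**Figure D5:**
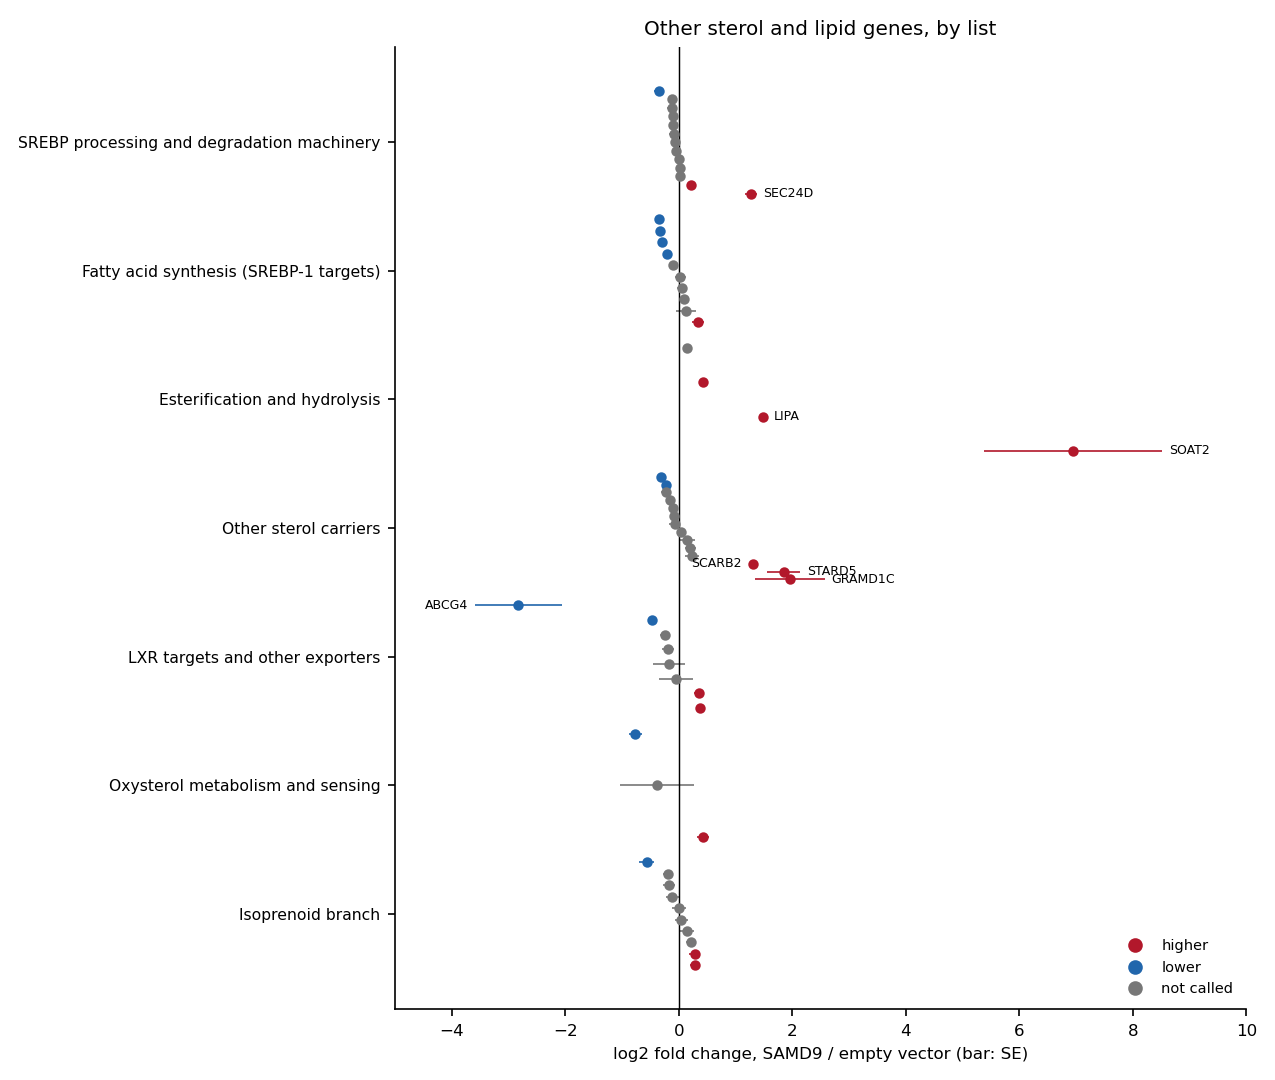
Log2 fold change, SAMD9 over empty vector, of the 62 tested genes in 7 related lists (points, with SE bars; red higher, blue lower, grey not called), sorted by value within a list and with names for those beyond 0.9 in either direction. Most points lie near 0; SEC24D, LIPA and SCARB2 lie right of 1 with short bars, while SOAT2 and ABCG4 rest on few counts and have wide bars, and the fitted value of SOAT2 depends on the prior count.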

How the data were processed

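Each deposited file held 1 library's raw counts per gene, with the CPM and RPKM values the authors had computed from them. Only the counts were tested. The authors' pipeline, per the submitters' processing notes, involved bcl2fastq, STAR 2.5.1a and Subread featureCounts 1.4.6-p5 on build GRCh38. Its annotation release is not given in the sources used here, nor is the strand used in counting. Replicates differed beyond sampling noise (chi-square per degree of freedom 9.35 and 5.00). Between 71.8% and 74.1% of counts from 1 to 20 were even, so counting intervals on low counts may be too narrow.

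Counts were tested with edgeR 4.0.16 (R 4.3.3): filterByExpr (minimum count 10, minimum total 15), TMM factors 0.932 to 1.07, quasi-likelihood F-test without covariates, all 4 libraries, Benjamini-Hochberg over 19814 genes. SE is the absolute log2 fold change over the square root of F. CPM per kb divides TMM-normalised CPM by the listed length. Gene symbols were looked up in a reference table that held 54836 of the IDs, promoter windows from RefSeq (GRCh38.p14), overlaps and 31-base words from the reference annotation. The labels do not say that replicate numbers pair libraries. Deviations from the group mean were nearly uncorrelated between libraries of the same number (0.0042), which cannot show how the libraries were prepared.

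The members and lists were chosen with earlier results of these data known. Every member is accounted for, with values per library for called members and 9 regulators, and up to 3 genes with the lowest p are named per related list. Some genes that this rule names are left out of the text, though the counts include them. GRAMD1C and ABCG4 are named because of the filter. Alternatives were total-count and median-ratio scaling, DESeq2 1.42.0, no filter, a replicate block, and leaving out each library. With 2 libraries against 2, an exact permutation test gives no two-sided p below 0.333.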

Additional observations from a re-analysis of the deposited data

How the results depend on the processing

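Against 7 rises and 3 falls among the members, total-count scaling gave 3 and 20 and a median of -0.30, and leaving out 1 library gave 5 to 7 rises and 1 to 6 falls (6 without empty vector replicate 1, 1 without SAMD9 replicate 2). DESeq2 gave 6 and 2. Restricting to members with no shared exonic base, an alternative added after seeing the data, left 4 and 1 of 17 members. Of all genes tested, with or without shared bases, 15.3% rose and 12.2% fell. In the related lists, 14 rises became 8 with total-count scaling, 9 with DESeq2 and 9 to 13 with 1 library left out, and 11 falls became 31 with total-count scaling. Of all genes, 9.96% rose and 28.5% fell with total-count scaling, and 12.3% rose with DESeq2. HMGCS1, STARD4 and SREBF1 were called under all 9 alternatives. The sign of some uncalled members turned. With 1 library left out, ACAT2 ranged from -0.28 to 0.0060, MVD from -0.26 to 0.044 (both positive without empty vector replicate 2), CYP51A1 from -0.48 to 0.047 (positive without SAMD9 replicate 2), INSIG2 from -0.21 to 0.069 (positive without empty vector replicate 1) and MYLIP from -0.080 (without SAMD9 replicate 1) to 0.32. Total-count scaling turned NSDHL to -0.045 and MYLIP to -0.051. The cause was not tested. A replicate block gave the same 7 rises and 3 falls, 14 and 11 calls in the related lists and a median of -0.11. The share of all genes called was not counted for this setting, so these counts have no background beside them. The labels do not say that replicate numbers pair libraries, so no pairing is implied. Leaving out 1 library leaves 1 residual degree of freedom and assumes the lone library varies like the other group. Depth limits CH25H and SOAT2 with empty vector, which had 2 counts or fewer per library.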
